A study of Homo sapiens with 16 samples.

Results

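The 42 genes described here each span about 300 kb or more of the human genome, from first to last annotated base. They were chosen by span and by symbol, and each symbol was matched to the Ensembl identifier in the tables, so they are 42 of 60666 genes measured. In GENCODE 29 on GRCh38 all 42 are protein-coding, with spans from 317 kb (EXT1) to 2058 kb (MACROD2) and a median of 733 kb. Exons cover only 0.362 to 6.29% of these spans. The table holds 1033 genes of 300 kb or more, of which these 42 are a part.

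RNA came from U2OS, an established human sarcoma line, made into 4 stable lines with a puromycin vector: the empty vector (plko.puro), a short hairpin against PIP4K2A, a short hairpin against PIP4K2B, or hairpins against both. These genes encode kinases of the lipid phosphatidylinositol 5-phosphate. Each line was left untreated or collected 6 h after UV-C at 30 J/m2, giving 8 groups of 2 libraries. All lines carried the same parental background and puromycin selection, and no line carried a non-targeting hairpin, so loss of the kinase, the hairpin itself and differences between lines cannot be told apart. Whether replicates came from separate cultures is not in the labels; p-values therefore reflect library-to-library spread alone, which may be technical.

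RNA polymerase II takes a long time to cross genes of this size. UV-C makes bulky pyrimidine dimers in DNA, and a polymerase that meets one on the template strand stops. Transcription-coupled repair, begun by the ERCC6 and ERCC8 proteins, removes such lesions, and a longer gene offers more places to stall. Steady-state RNA also depends on how fast a transcript decays, so its level after UV need not follow the transcription of its gene.

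The library labelled empty vector, untreated, replicate 1 held 1.28 M expected counts against 28 to 39.9 M in the other 15, and 14.6% of its counts were mitochondrial against 2.20 to 3.43%. Its log CPM correlated with those of the 15 at 0.649 to 0.683, whereas the 15 correlated with each other at 0.986 to 0.999. It was set aside, which leaves 1 library for untreated empty vector, taken to have the spread of the remaining groups. Among the 15, the pair of PIP4K2A knockdown libraries after UV agreed least (r = 0.989, against 0.996 to 0.998 in the other 6 pairs), and RN7SL1 took 0.975% of counts in its replicate 1 against 3.25 to 4.62% in the other 7 UV libraries. Results among the very long genes that rest on this pair are given with and without each of its libraries. The targeted genes followed the labels: PIP4K2A was lower than in empty vector by edgeR's quasi-likelihood test in untreated cells with its hairpin (log2 fold change -1.94, adjusted p = 2.97e-06) and with both (-1.48), and PIP4K2B with its hairpin (-2.06, adjusted p = 1.37e-06) and with both (-2.57). Of 10 mesenchymal and osteoblast markers 6 had a mean of at least 1 CPM, while SP7, BGLAP, COL1A2 and TWIST1 did not. Of the 6 epithelial markers 4 did, and of the 5 blood cell markers 0. The mesenchymal and osteoblast markers summed to 4524 to 7838 CPM. The 5 blood cell markers summed to 0.411 to 1.23 CPM and the 6 epithelial markers to 22.9 to 45.5 CPM.

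The promoter windows of a pair of genes show the sequence context of the responses, one of a gene that fell after UV in all 4 lines (FOXP1) and that of one that rose (WWOX). Each runs from 250 bases before to 50 bases after the gene's start in RefSeq (GRCh38.p14), on the gene's own strand, with CpG dinucleotides in capitals. The FOXP1 window is chr3:71583679-71583978, minus strand, and the WWOX window chr16:78099404-78099703, plus strand.
FOXP1: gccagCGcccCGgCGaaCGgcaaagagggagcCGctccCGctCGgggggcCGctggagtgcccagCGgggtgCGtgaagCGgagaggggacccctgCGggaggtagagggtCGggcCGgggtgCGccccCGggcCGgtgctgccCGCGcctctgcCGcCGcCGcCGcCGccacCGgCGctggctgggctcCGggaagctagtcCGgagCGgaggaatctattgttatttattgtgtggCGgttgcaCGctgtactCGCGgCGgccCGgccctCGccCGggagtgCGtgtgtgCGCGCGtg
WWOX: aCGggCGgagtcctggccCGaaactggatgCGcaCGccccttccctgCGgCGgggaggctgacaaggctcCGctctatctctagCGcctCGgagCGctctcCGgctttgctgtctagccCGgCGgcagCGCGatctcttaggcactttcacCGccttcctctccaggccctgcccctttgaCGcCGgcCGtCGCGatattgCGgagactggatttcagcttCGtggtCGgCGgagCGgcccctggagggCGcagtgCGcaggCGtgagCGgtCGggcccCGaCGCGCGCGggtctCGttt
Both windows are rich in CpG, with 41 in FOXP1 and 38 in WWOX, and GC contents of 75% and 69%. Of the 42 genes 37 had a window in the RefSeq table, and their median CpG number was 27 against 14 over all 27305 windows. Their median GC content was 65% against 58.3%. The 7 genes that fell after UV in 3 or 4 lines had medians of 28 CpG and 64.7% GC, and 6 of the 8 that rose in 3 or 4 lines had medians of 23.5 and 58.7%. An exact AP-1 motif (TGACTCA or its complement TGAGTCA) stood in 0 of the 37 windows and in 4.92% of all windows. The cyclic AMP response element (TGACGTCA, its own complement) stood in 1 of 37, or 2.70%, and in 1.98% of all. TATAAA, on either strand, stood in 3 of 37, or 8.11%, and in 12% of all windows. None of these motifs lies within another. These matches describe the letters in the windows only. Some RefSeq starts lie well inside the annotated span. The TBC1D5 window is at 17740858 to 17741157 on the minus strand, whereas its annotated span reaches 18444817. For such genes the transcribed unit may be shorter than the span.

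After UV the very long genes did not move as a block. In empty-vector cells 7 fell and 5 rose among the 41 tested (adjusted p under 0.05, edgeR's quasi-likelihood test with Benjamini-Hochberg adjustment over 22597 genes), while 9.82% of all genes tested fell and 8.67% rose. The genes that fell were FOXP1, AUTS2, PRKCE, ATXN1, MAGI1, FNDC3B and TCF4, and those that rose were WWOX, NBEA, VPS13B, EXOC6B and TBC1D5. Leaving out 1 library at a time, in 14 ways, gave 3 to 7 falls and 1 to 12 rises. The shares of all genes called in those fits are not given here, so these ranges are not particular to the very long genes. SUPT3H, with a mean under 1 CPM, was filtered out and is the one gene not tested.

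The 7 falls recurred in the PIP4K2B and double knockdowns, and 5 of them in the PIP4K2A knockdown. In the PIP4K2B knockdown 7 fell and 10 rose (15.4% and 17.5% of all genes), and in the double knockdown 8 fell and 12 rose (16.1% and 19.1%). All 7 that fell in empty vector also fell in both of these, and ERC1, which encodes a scaffold of secretory zones, was the eighth in the double knockdown. In the PIP4K2A knockdown 5 fell and 12 rose (14% and 16.6%), and AUTS2 and MAGI1 missed the threshold. Without replicate 1 of its UV pair 7 fell and 10 rose (13.7% and 14.3%), AUTS2 and MAGI1 among those that fell, so that all 7 fell in all 4 lines. Without replicate 2 instead, 6 fell and 13 rose (17.5% and 20.2%). Of the 41 genes tested 17 passed in no line, and none fell in one line and rose in another. How often calls recur between lines was not counted over all genes. The recurrence is therefore not shown to be particular to the very long genes. The 4 comparisons use separate libraries but 1 estimate of spread.

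**Figure D1:**
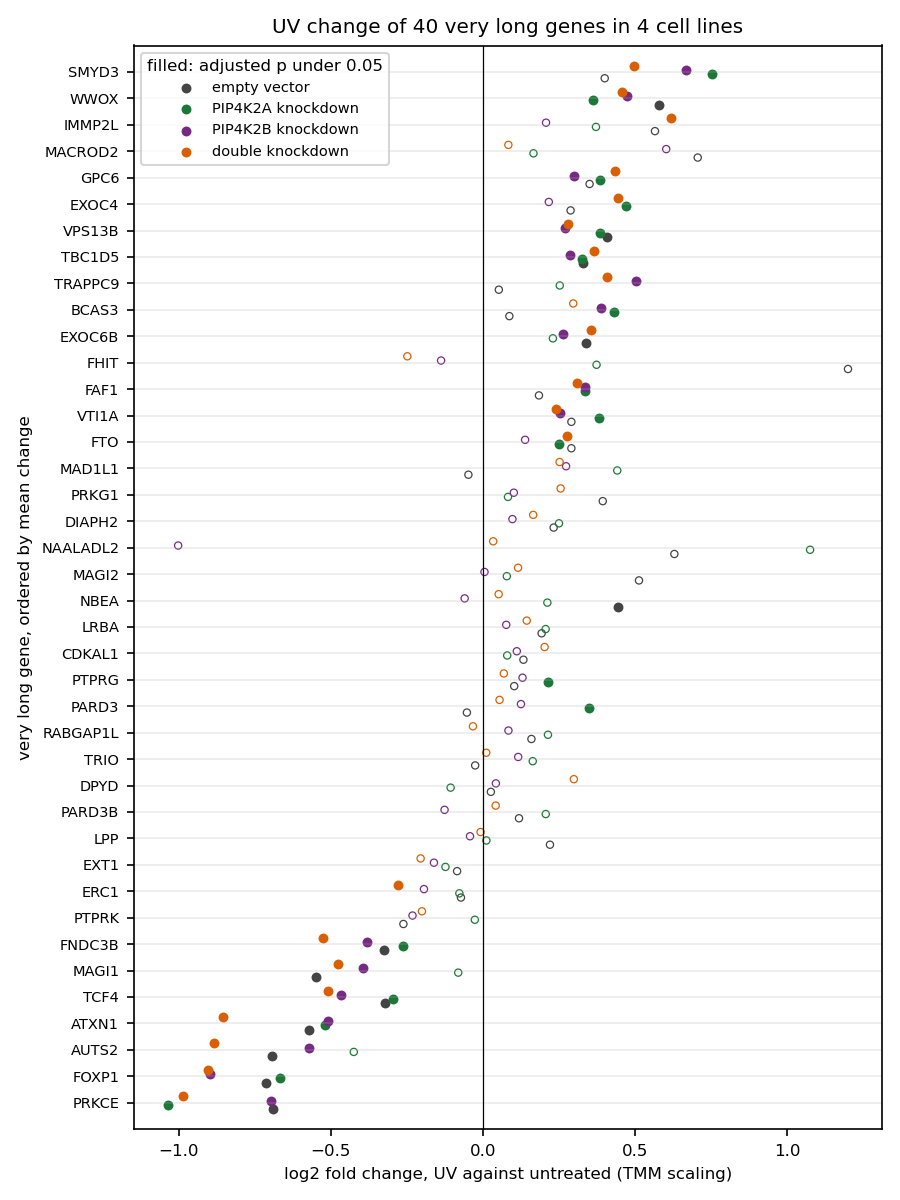
Log2 fold change (UV against untreated, TMM scaling, horizontal axis) of 40 of the 41 very long genes tested (rows, ordered by mean change) in the 4 lines. Filled points passed adjusted p under 0.05. PRKCE, FOXP1, AUTS2, ATXN1, TCF4, MAGI1 and FNDC3B form the lower end, and AUTS2 and MAGI1 have open points in the PIP4K2A knockdown.

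Of the genes that fell, 4 encode regulators of transcription or chromatin. Levels are CPM scaled with TMM, which sets the bulk of genes equal between libraries. FOXP1, a forkhead transcription factor (ENSG00000114861, minus strand of chromosome 3, 70952817 to 71583993), stood at 62.5 CPM in the untreated empty-vector library and at 38.7 and 37.5 after UV. The PIP4K2A knockdown went from 52.7 and 53.0 to 33.9 and 32.7 CPM, the PIP4K2B knockdown from 46.3 and 50.7 to 26.9 and 25.1, and the double knockdown from 55.7 and 55.3 to 29.5 and 29.8. Every UV library lay below every untreated library. The log2 fold change was -0.71 (SE 0.0961, adjusted p = 0.000345 by edgeR) in empty vector and -0.67, -0.90 and -0.91 in the knockdowns in that order.

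ATXN1, the polyglutamine-containing chromatin binding protein ataxin-1 (minus strand of chromosome 6, 16299112 to 16761491), fell from 39.9 CPM to 27.4 and 26.2 in empty vector. It fell from 51.0 and 54.4 to 38.5 and 35.0 in the PIP4K2A knockdown, and from 58.9 and 56.2 to 39.4 and 41.5 in the PIP4K2B knockdown. In the double knockdown it fell from 60.8 and 63.6 to 34.5 and 34.4. The groups did not overlap within any line, although untreated levels differed between lines. Such a gap was common among the 41 genes tested and was not counted over all genes. It therefore does not set FOXP1, ATXN1 or PRKCE apart. The log2 fold changes of ATXN1 were -0.57 (SE 0.102, adjusted p = 0.00216 by edgeR), -0.52, -0.51 and -0.85.

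TCF4, a basic helix-loop-helix factor that pairs with other such factors (minus strand of chromosome 18, 55222331 to 55664787), stood at 104.6 CPM untreated and at 82.1 and 85.2 after UV in empty vector. Its log2 fold changes were -0.32 (SE 0.102, adjusted p = 0.0444 by edgeR), -0.30, -0.47 and -0.51. The empty-vector call for TCF4 was made in 4 of 14 fits that left out 1 library, and the change ranged from -0.35 to -0.29.

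AUTS2, a nuclear protein linked to Polycomb complexes and the longest of the 7 genes at 1195 kb (chromosome 7, 69598296 to 70793495, plus strand), fell from 112.6 CPM to 66.2 and 73.0 in empty vector. It fell from 79.4 and 85.2 to 56.2 and 54.5 CPM in the PIP4K2B knockdown, and from 98.7 and 98.7 to 54.7 and 52.2 in the double knockdown. In the PIP4K2A knockdown the untreated libraries held 87.8 and 100.5 CPM and the UV libraries 88.4 and 51.9, so replicate 1 lay within the untreated range and replicate 2 well below it. The log2 fold changes of AUTS2 were -0.69 (SE 0.209, adjusted p = 0.0362 by edgeR), -0.42 (adjusted p = 0.0849), -0.57 and -0.88, and that of the PIP4K2A knockdown was -0.89 without replicate 1 and -0.09 without replicate 2. The empty-vector call was made in 4 of 14 fits that left out 1 library.

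The other 3 genes that fell encode a kinase, a junction scaffold and a membrane protein. PRKCE, the epsilon isoform of protein kinase C (chromosome 2, 45651345 to 46187990, plus strand), fell from 30.1 CPM to 17.2 and 20.1 in empty vector and from 29.7 and 34.0 to 15.9 and 15.2 in the PIP4K2A knockdown. It fell from 30.5 and 32.2 to 19.0 and 19.7 in the PIP4K2B knockdown and from 25.1 and 24.6 to 12.1 and 13 in the double knockdown. Its levels did not overlap between UV and untreated libraries, and the log2 fold changes were -0.69 (SE 0.126, adjusted p = 0.00254 by edgeR), -1.04, -0.70 and -0.98. FOXP1, ATXN1 and PRKCE passed the test in all 4 lines in every fit that left out 1 library.

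MAGI1, a scaffold of cell junctions (minus strand of chromosome 3, 65353525 to 66038834), fell from 39.0 CPM to 26.8 and 26.4 in empty vector, a log2 fold change of -0.55 (SE 0.162, adjusted p = 0.0331 by edgeR). It fell by 0.39 and 0.48 on the log2 scale in the PIP4K2B and double knockdowns. In the PIP4K2A knockdown it stood at 38.6 and 37.5 CPM untreated and at 41.9 and 30.0 after UV (log2 fold change -0.08), again with replicate 1 high. MAGI1 passed the test in 7 of 14 fits that left out 1 library in empty vector and in 6 of 15 in the PIP4K2B knockdown. FNDC3B, a fibronectin type III domain protein of the endoplasmic reticulum (chromosome 3, 172039628 to 172401665, plus strand), fell from 156.9 CPM to 126.2 and 124.2 in empty vector. Its log2 fold changes were -0.33 (SE 0.0836, adjusted p = 0.0175 by edgeR), -0.26, -0.38 and -0.52. The FNDC3B call in empty vector was made in 10 of 14 such fits.

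**Figure D2:**
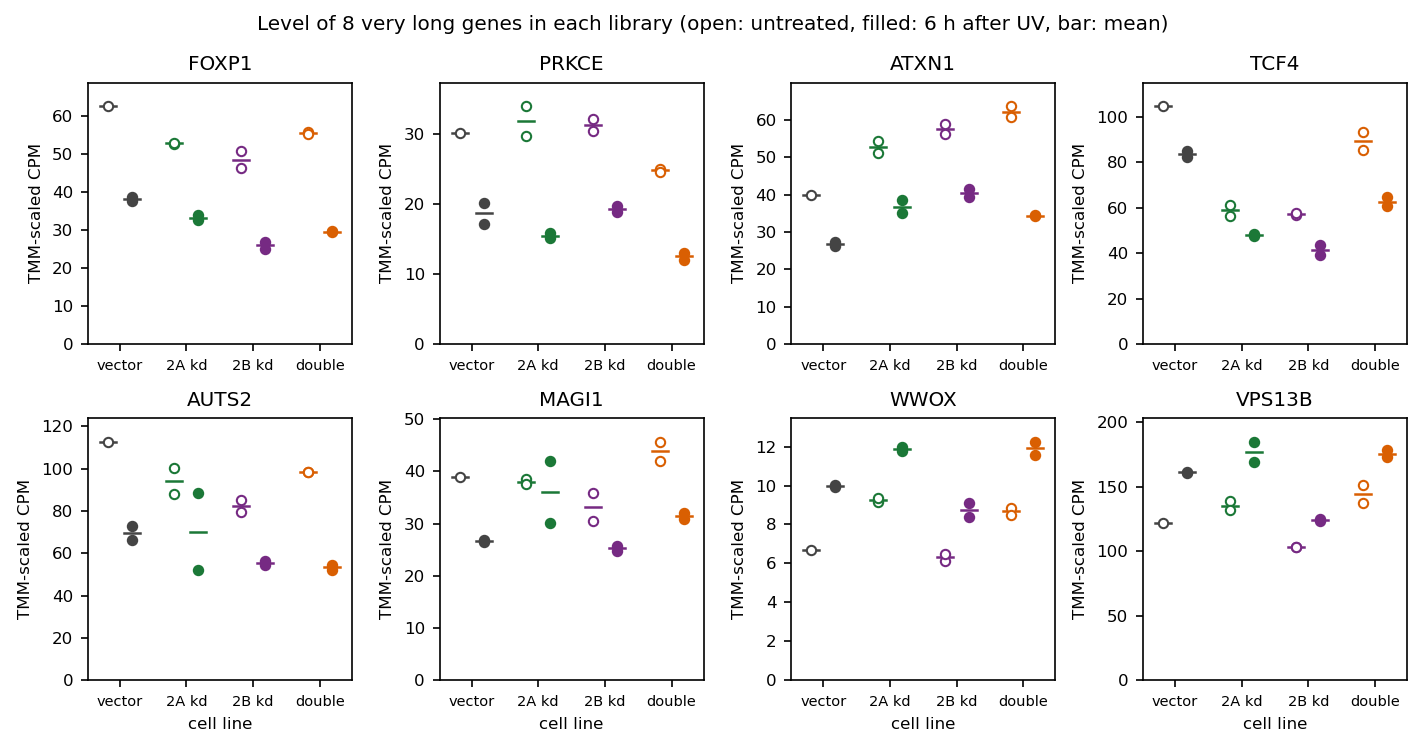
TMM-scaled CPM (vertical axes, from 0) of 8 very long genes in each library, by line, with open points untreated, filled points 6 h after UV and bars at group means (untreated empty vector is 1 library). FOXP1, PRKCE, ATXN1 and TCF4 drop in every line, the UV points of AUTS2 and MAGI1 spread widely in the PIP4K2A knockdown, and WWOX and VPS13B rise on this scale.

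The rises were smaller and depend on the scale. WWOX, an oxidoreductase with WW domains that lies on a fragile site (chromosome 16, 78099413 to 79212667, plus strand), went from 6.68 CPM to 10.1 and 9.92 in empty vector and from 9.15 and 9.34 to 11.8 and 12 in the PIP4K2A knockdown. It went from 6.15 and 6.46 to 8.38 and 9.12 in the PIP4K2B knockdown and from 8.86 and 8.48 to 11.6 and 12.2 in the double knockdown. With TMM scaling its log2 fold changes were 0.58 (SE 0.130, adjusted p = 0.00854 by edgeR), 0.36, 0.47 and 0.46, and with scaling to 83 ribosomal protein genes WWOX had -0.14, -0.44, -0.43 and -0.42.

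VPS13B, a lipid transfer protein of the Golgi, rose from 121.5 CPM to 161.8 and 160.9 in empty vector on the TMM scale (log2 fold change 0.41, SE 0.0985, adjusted p = 0.0127 by edgeR). In the knockdowns its log2 fold changes were 0.38, 0.27 and 0.28, and TBC1D5, which encodes a GTPase-activating protein of retromer transport, had 0.33, 0.32, 0.28 and 0.36 in the 4 lines. These 2 and WWOX rose in all 4 lines with TMM scaling, and 5 more rose in 3 lines: VTI1A, FAF1, EXOC6B, GPC6 and SMYD3. EXOC6B, a subunit of the exocyst, stood at 59.3 CPM and then at 74.7 and 75.5 in empty vector (log2 fold change 0.34, adjusted p = 0.0404 by edgeR), a call made in 4 of 14 fits that left out 1 library, and in 7 of 15 for the PIP4K2B knockdown. NBEA, a BEACH-domain protein of membrane traffic, went from 13.2 CPM to 17.9 and 18.1 in empty vector (0.45, SE 0.129, adjusted p = 0.0304 by edgeR), and had 0.21, -0.06 and 0.05 in the knockdowns, none past the test. SMYD3, a lysine methyltransferase, had the largest rise past the test among the 41 in any line, 0.75 in the PIP4K2A knockdown with TMM scaling (0.79 without UV replicate 1 and 0.68 without replicate 2). WWOX, VPS13B and TBC1D5 passed in that line without either library.

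TMM, library totals and ribosomal protein genes gave different zero points. By the deposited TPM, which also uses transcript length, the 42 genes summed to 631 in untreated empty vector and 347 and 383 after UV. On that scale WWOX went from 5.11 to 4.4 and 4.89 and VPS13B from 8.98 to 6.03 and 6.05. TBC1D5 went from 20.4 to 13.9 in both UV libraries. After UV the summed level of the 42 genes, as CPM of library totals, was lower in every line: 2895 in the 1 untreated empty-vector library against 2440 ± 22.4 (SD, n = 2), 3082 ± 74.4 against 2753 ± 59.4 in the PIP4K2A knockdown, 2848 ± 39.5 against 2299 ± 16.3 in the PIP4K2B knockdown, and 3116 ± 53.4 against 2422 ± 4.35 in the double knockdown. In the same libraries 3 abundant short RNAs, RN7SK, RN7SL1 and RN7SL2, took a median of 7.17% of counts untreated and 11% after UV, and TMM factors ran from 1.08 to 1.15 untreated and from 0.873 to 0.954 after UV. Their part in the result was not tested. Scaled to library totals, the median of all genes moved to -0.23, -0.24, -0.30 and -0.30 in empty vector, PIP4K2A, PIP4K2B and double knockdown. On that scale 0, 1, 1 and 0 of the very long genes rose (2.58, 6.11, 6.59 and 5.65% of all genes did) and 10, 9, 14 and 13 fell (19, 24.9, 30.1 and 29.9%). Scaled to ribosomal protein genes, the median of all genes was -0.70, -0.78, -0.90 and -0.85, none of the 41 rose (0.668, 0.867, 0.566 and 0.602% of all genes did), and 23, 36, 38 and 37 fell (48.2, 63.7, 67.2 and 65.2%). Both of these scales move all genes down, so that genes which fell with TMM lie lower still. Of the 26 falls of the 7 genes in single lines, 25 passed with the replicate number as a block, 23 with only the groups compared, 22 with no filter on low counts and 3 with all 16 libraries.

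The median of the very long genes lay slightly above that of all genes. Their median log2 fold change was 0.18, 0.21, 0.10 and 0.08 with TMM, against 0.02, 0.01, 0.00 and 0.02 over all genes. Scaling to library totals or to ribosomal protein genes shifts every gene of a comparison alike and leaves the distance between both medians as it is. The other 766 tested genes of 300 kb or more had medians of 0.03, 0.03, -0.04 and -0.01, and 8.49, 11.9, 15.5 and 17.5% of them fell.

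Sorted by role, in groups made after earlier results were known and so without a test, the counts read as follows. The transcription and chromatin regulators had 4 falls and 0 rises among 5 tested in empty vector (9.82% of all genes fell and 8.67% rose), 3 and 1 in the PIP4K2A knockdown, and 4 and 1 in each of the other lines, the rise in each being SMYD3. In the knockdowns 14 to 16.1% of all genes fell and 16.6 to 19.1% rose. The 11 genes of membrane traffic had 4 rises and 0 falls in empty vector, and with TMM scaling the PIP4K2A knockdown had 5 and 0, the PIP4K2B knockdown 6 and 0 and the double knockdown 6 and 1. In the PIP4K2A knockdown the regulators had 4 falls and 1 rise without UV replicate 1 and 3 and 1 without replicate 2, and the traffic genes 5 and then 6 rises and no fall. Their rises are not kept with ribosomal protein gene scaling, where no gene rose. The receptor phosphatase gene PTPRG rose in the PIP4K2A knockdown (0.21, and 0.17, not past the test, without UV replicate 2), and had 0.10, 0.13 and 0.07 in empty vector and the PIP4K2B and double knockdowns, none past the test.

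The median exon share was higher in the genes that fell, with ranges that overlap those of the others. Exons covered 1.70 to 6.29% of the 7 spans (median 3.67%), 0.439 to 2.26% (median 1.16%) in the 8 genes that rose in 3 or 4 lines, and 0.362 to 4.51% (median 1.04%) in the 17 that passed in none. Median spans were 537, 811 and 910 kb in the same order. The mean level per transcript length ran from 4.64 to 27.9 TPM (median 11.2) among the 7, and over all the genes from under 1 to 66.9 TPM in TRIO. Exons of 17 of the 42 genes, FOXP1 and TCF4 among the 7 that fell, overlap those of a gene on the opposite strand. The strand setting of the counting is not given in the sources used here, so reads there may be shared. Exons of 4, FOXP1, MAGI1, TBC1D5 and DPYD, overlap those of a gene on the same strand, where reads may be shared under any setting.

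Length itself did not order the UV response downward among these genes. Across the 41 the Spearman correlation of span with log2 fold change was 0.63, 0.28, 0.17 and 0.29 in the 4 lines, so the longer ones had the higher values. In the PIP4K2A knockdown it was 0.46 without UV replicate 1 and 0.15 without replicate 2. The points share libraries, and the longer genes also have lower counts, with some of the longest under 1 CPM on average. The 14 shortest of the 41, from 317 to 650 kb, held 5, 5, 5 and 6 falls and 1, 3, 3 and 4 rises. Their medians were -0.08, -0.05, -0.18 and -0.20. The 13 longest, from 910 to 2058 kb, held 1, 0, 1 and 1 falls, all of AUTS2, and 2, 3, 3 and 3 rises. Their medians were 0.35, 0.21, 0.10 and 0.12. Over all genes 9.82, 14, 15.4 and 16.1% fell and 8.67, 16.6, 17.5 and 19.1% rose. Median levels were 9.34 CPM in the longest and 69.0 in the shortest, so calls in these sets are not on an equal footing.

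Over protein-coding genes in general the relation ran the other way, and most of it lay among short genes. With a mean of at least 5 CPM, genes under 10 kb had median log2 fold changes of 0.34, 0.34, 0.51 and 0.52 after UV in the 4 lines, and genes of 10 to 30 kb 0.13, 0.17, 0.23 and 0.26. From 100 to 300 kb the medians were 0.01, 0.06, -0.05 and 0.00, and at 300 kb and over they were 0.04, 0.08, 0.00 and 0.02, so the step from short to middle length was larger than any beyond it. Across 10855 such genes the Spearman correlation of span with the change was -0.22, -0.21, -0.36 and -0.34, and across 22015 genes of all types, which include many short non-coding ones, -0.02, 0.04, -0.04 and -0.02. An index per library, the median log2 CPM of genes of 300 kb and over less that of genes under 10 kb, was 2.76 untreated and 2.92 and 2.82 after UV in empty vector. It was higher after UV by 0.11, 0.19, 0.10 and 0.13 in the 4 lines over all genes tested, and lower by protein-coding genes alone, at -0.06, -0.14, -0.27 and -0.26.

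**Figure D3:**
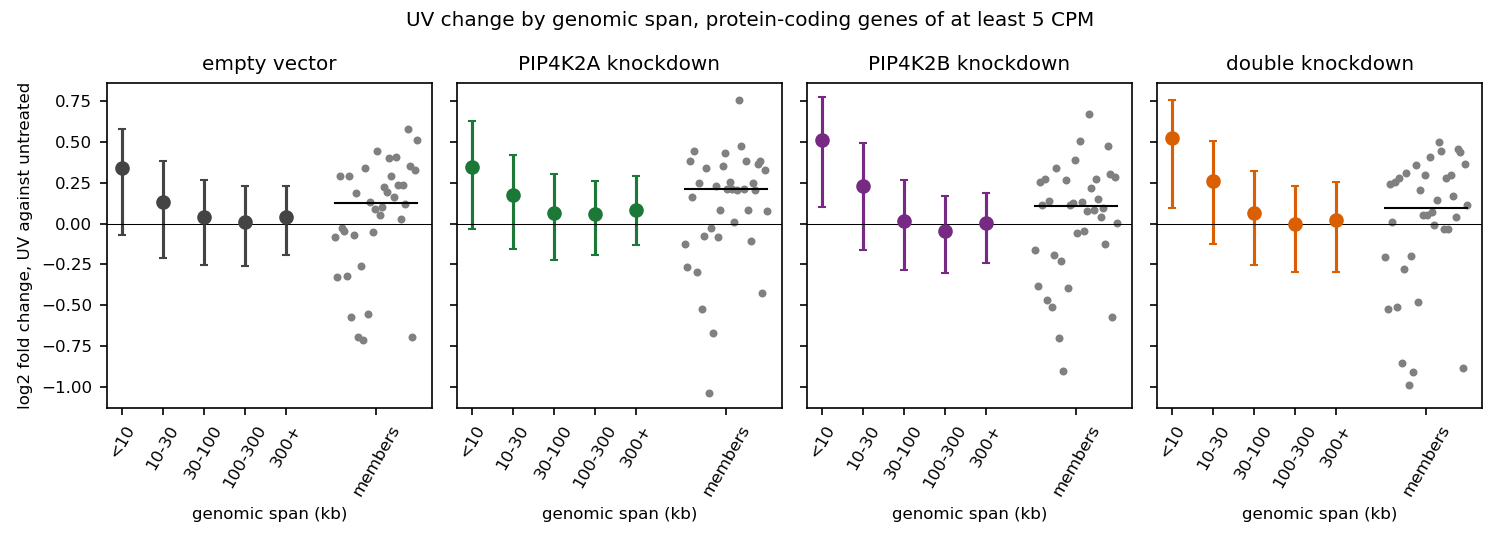
Median log2 fold change after UV (points) with the quartiles (bars) of protein-coding genes of at least 5 CPM by genomic span in kb, in the 4 lines, with the very long genes of that level as grey points from the shortest on the left to the longest on the right and a line at their median. Genes under 10 kb lie highest, the classes from 30 kb up lie near 0, and the lowest grey points stand mostly to the left.

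The UV response of the very long genes was not shown to differ between lines. In all 6 contrasts of UV responses, each knockdown against empty vector and the knockdowns against each other, 0 of 41 genes passed edgeR's test, with 2, 2, 1, 2, 1 and 2 at an unadjusted p under 0.05. Of all genes 0.00885% passed for the PIP4K2A knockdown against empty vector, 0.00885% for the double knockdown against empty vector, 0.0133% for the double against the PIP4K2A knockdown, and 0% in the other 3. For FOXP1 the difference from empty vector was 0.05 (95% interval -0.23 to 0.32) in the PIP4K2A knockdown, -0.18 (-0.46 to 0.09) in the PIP4K2B knockdown and -0.19 (-0.47 to 0.09) in the double knockdown. For ATXN1 the double knockdown differed by -0.28 (-0.57 to 0.01), and for PRKCE by -0.29 (-0.66 to 0.07). NBEA differed by -0.51 (-0.87 to -0.15, unadjusted p = 0.00980, adjusted p = 0.672 by edgeR) in the PIP4K2B knockdown. Over the 31 genes with a mean of at least 10 CPM the median half-width of these intervals was 0.30 to 0.34, and in each contrast 30 or 31 of the 31 intervals lay wholly within 1 of 0 on the log2 scale.

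One library changes this. Without replicate 2 of the PIP4K2A knockdown after UV, 4 genes differed from empty vector in their UV response (8.28% of all genes did): MAD1L1 by 0.81, MAGI1 by 0.69, AUTS2 by 0.60 and PARD3 by 0.60. The double knockdown then differed from the PIP4K2A knockdown in 5 (6.76%) and the PIP4K2B knockdown in 3 (4.06%). Without replicate 1 instead, 0 of the very long genes differed in these 3 contrasts (0.0533%, 0.0222% and 0.00889% of all genes did). The calls appear when the library with low RN7SL1 stands alone for its group, over all genes as well as among the very long ones.

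**Figure D4:**
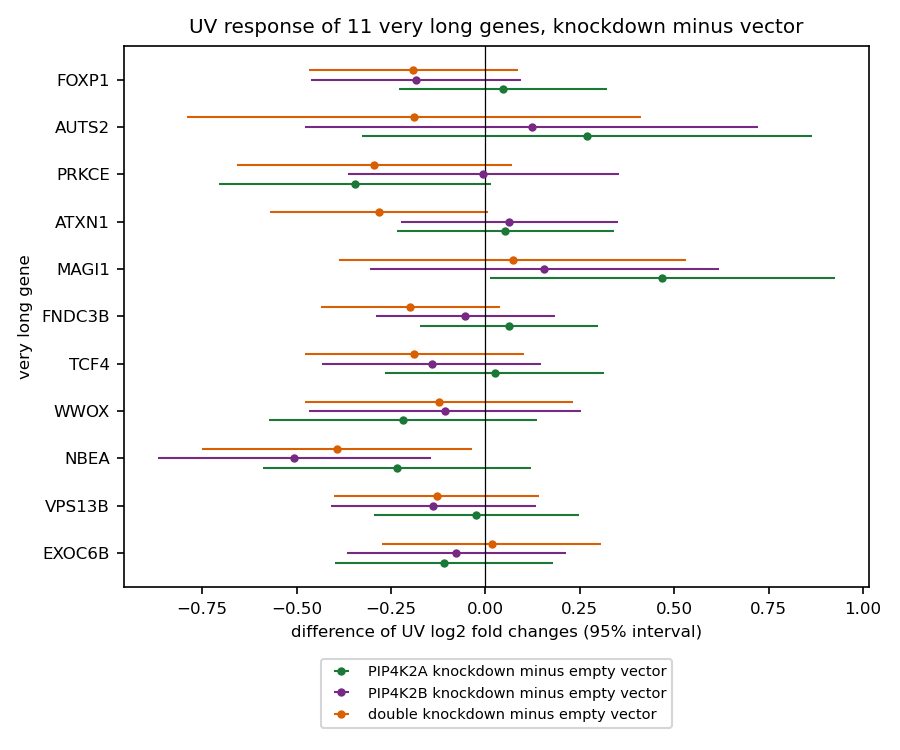
Difference of UV log2 fold changes, each knockdown minus empty vector, with 95% intervals (horizontal axis), for the 7 genes that fell and 4 that rose in empty vector. All but 3 of the intervals include 0, the exceptions being MAGI1 in the PIP4K2A knockdown and NBEA in the PIP4K2B and double knockdowns, and none passed the adjusted test.

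Without UV the lines differed in the level of some very long genes. Against empty vector 6 were higher and 3 lower in the PIP4K2A knockdown (3.71% and 4.13% of all genes), 6 and 4 in the PIP4K2B knockdown (5.26% and 4.99%), and 5 and 2 in the double knockdown (3.24% and 2.96%). These comparisons share the 1 untreated empty-vector library. ATXN1, LPP, EXT1 and LRBA were higher in all 3 and PARD3, a polarity protein, lower in all 3. EXT1, a heparan sulfate polymerase, stood at 155.0 CPM in empty vector, with both hairpins at 225.4 and 223.0, with the PIP4K2A hairpin at 204.2 and 217.4 and with the PIP4K2B hairpin at 243.6 and 246.3. LRBA, a BEACH-domain protein of vesicle traffic, stood at 67.4 CPM in empty vector and between 94.5 and 112.4 in the 6 knockdown libraries. TCF4 stood at 104.6 CPM in empty vector, with the PIP4K2A hairpin at 61.4 and 56.3 and with the PIP4K2B hairpin at 56.6 and 57.6, log2 fold changes of -0.83 (SE 0.101, adjusted p = 0.000403 by edgeR) and -0.87 (SE 0.101, adjusted p = 0.000179). In the double knockdown TCF4 held 93.1 and 85.5 CPM and did not pass the test.

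After UV the knockdowns again differed from empty vector, now 2 libraries against 2. In the PIP4K2A knockdown 9 were higher and 3 lower (11.3% and 9.01% of all genes), in the PIP4K2B knockdown 5 and 7 (10.7% and 8.3%), and in the double knockdown 6 and 7 (8.5% and 6.86%). Without replicate 1 of the PIP4K2A knockdown pair 11 were higher and 5 lower in that line (11.3% and 11%), and without replicate 2 the counts were 10 and 4 (16.4% and 13.6%). ATXN1, LPP, EXT1 and LRBA were higher and TCF4 lower in all 3, and TCF4 changed by -0.80, -1.02 and -0.42. These 5 passed in the PIP4K2A knockdown without either library of its pair. FOXP1 was lower in the PIP4K2B knockdown (-0.55) and the double knockdown (-0.36), and PRKCE in the double knockdown (-0.57).

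A transcript length averaged over isoforms passed the test after UV for 2 of the genes, in 1 or 2 of the 4 lines. These calls depended on single libraries, and a change of isoforms was not tested in any other way. The tables give for each gene a transcript length in bases, averaged over its isoforms by abundance, and 38 of the very long genes had enough counts for limma's test among 11544 genes. In empty vector and in the PIP4K2A knockdown 0 became longer or shorter (0.398% and 0.381%, and 1.08% and 1.15%, of all genes did), with 2 and 10 at an unadjusted p under 0.05. In the PIP4K2B knockdown 1 became longer and 0 shorter (0.615% and 0.892%), and in the double knockdown 1 became longer and 1 shorter (1.07% and 1.37%). VPS13B averaged 10234 bases untreated and 12313 after UV in the PIP4K2B knockdown (log2 ratio 0.27, adjusted p = 0.0351 by limma), and 10069 and 12180 in the double knockdown (0.27, adjusted p = 0.0251). In empty vector VPS13B went from 10306 bases to 12323 (0.26, adjusted p = 0.0987) and in the PIP4K2A knockdown from 10749 to 12046, neither past the test, and in all 4 lines the UV libraries lay above the untreated ones. PRKCE averaged 2635 bases untreated and 1714 after UV in the double knockdown (-0.62, adjusted p = 0.0149 by limma), and 2575 and 2182 in empty vector (-0.24, adjusted p = 0.486). The VPS13B and PRKCE calls in the double knockdown were lost on leaving out any 1 of its 4 libraries, and the VPS13B call in the PIP4K2B knockdown on leaving out 9 of the 15 libraries in turn. Without replicate 2 of the PIP4K2A knockdown after UV, 4 genes became longer and 7 shorter in that line (6.29% and 11.6% of all genes did), and without replicate 1 instead 0 and 0 (0.485% and 0.503%).

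**Figure D5:**
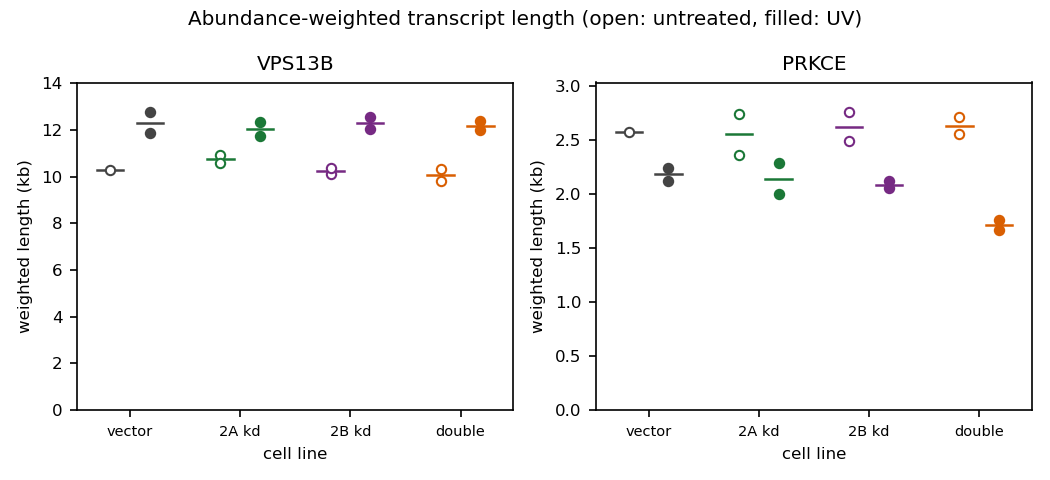
Abundance-weighted transcript length in kb (vertical axes, from 0) of VPS13B and PRKCE in each library, by line, with open points untreated, filled points after UV and bars at group means. VPS13B lies near 10 kb untreated and near 12 kb after UV, and PRKCE is lowest, at 1.67 and 1.76 kb, in the double knockdown after UV.

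Genes of the machinery that meets UV lesions were read beside these genes. Of 22 genes of transcription-coupled repair, all tested, 2 rose and 1 fell in empty vector, and 4 and 2, 6 and 2, and 6 and 1 in the PIP4K2A, PIP4K2B and double knockdowns. Over all genes tested 8.67% rose and 9.82% fell in empty vector, and 16.6 to 19.1% and 14 to 16.1% in the knockdowns, so the counts in empty vector are near those of all genes. ERCC6, which recognises the stalled polymerase, fell in all 4 lines (-0.74, -0.57, -0.91 and -0.80), whereas RAD23B, part of the lesion-binding XPC complex, rose in all 4 with TMM scaling (0.38, 0.43, 0.26 and 0.33). Of 27 genes of transcription elongation 3 rose and 4 fell in empty vector, and 7 and 5, 5 and 9, and 6 and 9 in the knockdowns. In the PIP4K2A knockdown the median log2 fold change without UV replicate 1 was 0.04 in the repair list and -0.08 in the elongation list, against -0.02 over all genes. Without replicate 2 instead, the medians were 0.25 and -0.01, against -0.04. ELL, an elongation factor, fell by 1.32, 1.41, 1.27 and 1.19 on the log2 scale and its relative ELL2 by 0.58, 0.49, 1.22 and 1.52. Neither list has a member of 300 kb or more among those named, with ERCC6 at 84.2 kb, ELL at 79.5 kb and ELL2 at 77.0 kb.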

How the data were processed

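The samples were 16 libraries of rRNA-depleted total RNA, prepared with a directional kit, per the labels' protocols; 15 are used here. Per the submitters' processing notes, GRCh38 was the build and RSEM, STAR and SAMtools were the tools; no version, annotation release or strand setting is given in the sources used here. The deposited tables hold expected counts per gene, estimated by RSEM per the file headers and not normalized, with TPM values and abundance-weighted transcript lengths in bases (other than a count) that the authors deposited beside them. Spans, exons and gene types came from GENCODE 29, which held 58420 of the 60666 identifiers.

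For edgeR 4.0.16 (R 4.3.3) the expected counts were made whole by rounding. Filtering used filterByExpr with a minimum count of 10, scaling used TMM, and the quasi-likelihood fit had a mean for each group over 15 libraries. Changes passed at a Benjamini-Hochberg adjusted p under 0.05 over 22597 genes. The standard error is the log2 fold change over the square root of F. Lengths were tested with limma 3.58.1 as log2 where a gene averaged 100 counts or more, setting aside values from libraries under 10 counts. The tests were tried on simulated data.

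The genes, lists and tests were chosen with earlier results of these data known. Genes with values in every library were the largest falls and rises in empty vector and the smallest adjusted p elsewhere; genes under 1 CPM on average are given by count, apart from span extremes and the untested gene. Total counts of 28 to 39.9 M per library set the counting error; with 2 libraries a group, the spread between libraries limits precision. Alternatives were RLE size factors, ribosomal protein gene scaling, library totals, no filter, CPM above 1, DESeq2 1.42.0, only the groups compared, all 16 libraries, the replicate block and leaving out each library. Library totals were added after seeing the data. Other tools were Python 3.11.15, pandas 2.3.3, numpy 2.4.6 and matplotlib 3.10.9. The values of 1 of the very long genes are not reported singly here.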

Additional observations from a re-analysis of the deposited data

How the results depend on the processing

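With 2 libraries a group and 1 in untreated empty vector, single calls near the threshold are not firm. Most counts in this section stand without the share of all genes called in the same fit, and that share can move between fits too. A change of count is therefore not particular to the very long genes. RLE size factors, DESeq2, CPM above 1 in 2 libraries and mean counts of 30 and 500 for lengths moved no count of very long genes by over 1.5 times. With all 16 libraries UV gave 0 rises in all 4 lines and 2, 1, 0 and 1 falls in empty vector, PIP4K2A, PIP4K2B and double knockdown; knockdown against empty vector gave 0 in all 6 comparisons in both directions, longer transcripts in the PIP4K2B and double knockdowns fell to 0, and FNDC3B in empty vector stood at 0.28. With library totals UV gave rises of 0, 1, 1 and 0 and falls of 9, 14 and 13 in the 3 knockdowns, the PIP4K2B knockdown after UV was lower in 12, and EXOC6B (-0.0428) and VPS13B (-0.0353) in the PIP4K2B knockdown and VPS13B (-0.0493) in the double knockdown reversed. With ribosomal protein gene scaling UV gave 0 rises in all 4 lines and 23, 36, 38 and 37 falls; untreated, the knockdowns were lower in 1, 2 and 0 and the double knockdown higher in 9; after UV the PIP4K2A knockdown was higher in 17 and the double knockdown lower in 2. On that scale WWOX had -0.14, -0.44, -0.43 and -0.42, VPS13B -0.32, -0.41, -0.64 and -0.60, EXOC6B -0.39 (empty vector), -0.64 (PIP4K2B) and -0.52 (double), and NBEA -0.28 in empty vector. With no filter on low counts, 2 rose in empty vector and 4 were lower in the untreated double knockdown. With only the groups compared, UV gave 10 rises in empty vector and 0 rises and 2 falls in the PIP4K2A knockdown; against empty vector the untreated PIP4K2A knockdown was higher in 3 and the double lower in 4, and after UV the PIP4K2A knockdown was higher in 0 and lower in 1, the PIP4K2B lower in 15, and the double higher in 10 and lower in 13. The span index changed by -0.0565, -0.144, -0.274 and -0.263 with protein-coding genes only, by -0.0261, -0.0050, -0.0992 and -0.168 with CPM above 1, by -0.00214, 0.0764, -0.0387 and 0.0425 for 200 kb against 20 kb, and at 500 kb by 0.205 in empty vector, -0.0388 in the PIP4K2B and 0.0707 in the double knockdown. The cause of these changes was not tested.

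Replicate numbers did not pair the libraries: deviations of same-numbered replicates correlated from -0.27 to 0.39 over 21 pairs of groups, with a median of -0.01. With the replicate block, untreated PIP4K2A knockdown was higher than empty vector in 3 and longer transcripts in the PIP4K2B knockdown fell to 0; no other count moved by over 1.5 times. Among the genes named, TCF4 (adjusted p = 0.0581 by edgeR) and EXOC6B (0.0604) after UV in empty vector and ATXN1 (0.0591) in the untreated PIP4K2A knockdown lost their calls with the block, and none reversed.

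Leaving out 1 library at a time, UV falls ranged from 3 to 7, 3 to 7, 5 to 9 and 6 to 9 in the 4 lines and rises from 1 to 12, 3 to 13, 2 to 11 and 5 to 13. In empty vector the fewest rises (1) came without its UV replicate 1 and the most (12) without either PIP4K2A knockdown UV library; falls were 3 without either of its own UV libraries or either UV library of the double knockdown. In the knockdowns the rises dropped most without a library of the line itself, replicate 2 untreated for PIP4K2A (3), replicate 2 untreated or UV replicate 1 for PIP4K2B (2 each) and UV replicate 2 for the double (5). Untreated against empty vector, the PIP4K2A knockdown was higher in 2 to 8 and lower in 1 to 5, the PIP4K2B in 3 to 6 and 1 to 6, and the double in 3 to 5 and 0 to 4. After UV the ranges were 3 to 11 and 2 to 5, 4 to 7 and 3 to 12, and 2 to 8 and 2 to 11. Differences of UV response ranged from 0 to 4 (PIP4K2A against empty vector), 0 to 5 (double against PIP4K2A) and 0 to 3 (PIP4K2B against PIP4K2A), all above 0 only without PIP4K2A knockdown UV replicate 2. Longer transcripts ranged from 0 to 4, 0 to 1 and 0 to 1 and shorter ones from 0 to 7, 0 to 1 and 0 to 1 in the PIP4K2A, PIP4K2B and double knockdowns. The span index ranged from 0.0133 (without empty-vector UV replicate 1) to 0.115, 0.196 to 0.273, 0.0299 (without PIP4K2B knockdown untreated replicate 2) to 0.135 and 0.0955 to 0.147. Without the 1 untreated empty-vector library its comparisons could not be given.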
